A study of Gallus gallus with 12 samples.

Results

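GABA and glycine are the inhibitory transmitters of the retina, and the genes described here make them, load them into vesicles, clear them and receive them. The list named 30 genes, chosen by symbol, and 27 of them were among the 23726 genes of the deposited count matrices; GABBR1, GABRB4 and GABRG4 were not analysed here. Their RNA was followed in single cells of the embryonic chick (Gallus gallus) retina. The libraries were of 4 kinds: 4 of whole retina at embryonic day 12 (E12), 4 of whole retina at E18, and at E16 2 of dorsal and 2 of ventral retina enriched for retinal ganglion cells (RGCs). All came from specific-pathogen-free eggs, with no treatment or genetic change in the labels. The pigment epithelium and pecten had been removed, and the enriched libraries carry E16 in their titles and stage fields but E18 in another label. The labels do not say that libraries came from separate embryos, so p-values measure the spread between libraries, which may be technical.

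GABA is made from glutamate by glutamate decarboxylase, is packed into synaptic vesicles by the vesicular inhibitory amino acid transporter, which also carries glycine, and is removed by plasma membrane transporters. GABA-A receptors are chloride channels built from alpha, beta and gamma or delta subunits, receptors of rho subunits carry slow sustained currents best known from bipolar cells, and GABA-B receptors act through G proteins. Glycine receptors are chloride channels of alpha and beta subunits, and gephyrin anchors them and part of the GABA-A receptors at synapses. In the retina horizontal cells feed back onto photoreceptors in the outer layer, while amacrine cells inhibit bipolar cells, RGCs and each other in the inner layer.

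Libraries held 955 to 14225 cell barcodes and 1737033 to 27655687 unique molecular identifiers (UMIs, each marking 1 captured RNA molecule). Cells were clustered without the listed genes and named from other markers, so a name such as "amacrine-like" rests on none of the listed genes. GLUL, described below among other genes of the pathway, was 1 of the Müller glia markers. After suspected doublets were taken out, the E12 and E18 libraries gave 497 and 4395 photoreceptor-like, 1839 and 1900 horizontal cell-like, 2111 and 11145 bipolar-like, 27410 and 6202 amacrine-like, 7070 and 583 RGC-like, and 2240 and 3495 Müller glia-like cells. At E18 bipolar-like cells held 7 of 9 bipolar markers, amacrine-like cells 8 of 12 amacrine markers and horizontal cell-like cells 7 of 7 horizontal cell markers at 50 CPM or more, where CPM is a gene's UMI count scaled to the total UMIs of the class in a library. Horizontal cell-like cells also held amacrine markers, at 4351 to 4871 CPM in sum at E12 and 2630 to 2798 CPM at E18, against 7008 to 7204 CPM in E18 amacrine-like cells. Müller glia markers stood there at 289 to 333 CPM at E12 and 2563 to 2614 CPM at E18. These sums came from few genes: 4 of 12 amacrine markers were at 50 CPM or more at E12 and 3 at E18. Of 11 Müller glia markers, 2 were at 50 CPM or more at E12 and 3 at E18. Erythroid markers stood there at 2.56 to 15.2 CPM at E12 and, unevenly between libraries, at 0 to 1243 CPM at E18. At E18, 2 of the 3 erythroid markers were at 50 CPM or more. The part of any of these in the horizontal cell-like results was not tested. Müller glia-like cells held Müller glia markers, GLUL among them, at 7182 to 7942 CPM in sum at E12 and 34516 to 35765 CPM at E18. Bipolar markers stood in Müller glia-like cells at 1297 to 1482 CPM at E12 and 543 to 555 CPM at E18. Whether Müller glia-like cells of the 2 stages are in a like state was not tested. Any pair of E12 libraries shared 278 to 298 barcodes and any pair of E18 libraries 62 to 85. At E16 the 2 dorsal libraries shared 28 barcodes, the 2 ventral libraries 14, and a dorsal and a ventral library 1 to 9. Sex moved with stage: HINTW, a gene of the female W chromosome, was found in 22.6% to 38.5% of the cells of a class in E12 libraries and in none at E18. A female cell can lack a HINTW UMI, so leaving out cells with one does not leave male cells only. The part of sex in the stage differences was not tested. With only E12 cells that had no HINTW UMI, the counts of called genes given below for the 6 classes were 5 to 12, each within 1.5 times its value; among the genes, GAD2 in horizontal cell-like cells fell under the count filter, SLC32A1 in RGC-like cells lost its call, and GLRA3 in horizontal cell-like and GLRA2 in bipolar-like cells gained one.

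Levels are given as CPM of the UMIs summed over all cells of a class in a library, in the order of libraries 1 to 4, with mean ± SD over 4 libraries. A stage difference was called when the adjusted p from edgeR's quasi-likelihood test was under 0.05 and the difference reached 2-fold; "rose" and "fell" are used for called differences only. CPM is scaled to total UMIs while the test rescales by TMM, so a ratio of printed CPM can differ from the fitted fold, and "under 2-fold" refers to the fit. Scaled by library totals, the genes newly called were GABBR2, GLRA4, GABRG1, GPHN and ABAT in amacrine-like, GLRA2 and GLRA1 in RGC-like, GLRA3 in horizontal cell-like, and GPHN, GAD1 and SLC6A9 in photoreceptor-like cells. Class sums cannot tell more RNA per cell from more cells of a subtype that holds the RNA.

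By these criteria more of the listed genes rose than fell in every class except horizontal cell-like cells. In amacrine-like cells 24 of the 27 genes passed the filter on low counts and 12 were called, where 20.1% of all genes tested were called; 11 rose (12.1% of all genes did) and 1 fell (8.01%). In RGC-like cells 9 of 19 were called (18.6% of all genes), 8 of them higher (10.7%) and 1 lower (7.86%). In bipolar-like cells 7 of 18 were called (21.8%), 6 higher (14.1%) and 1 lower (7.65%). In photoreceptor-like cells 6 of 11 were called (27.2%), all 6 higher (16.7%). In Müller glia-like cells 5 of 9 were called (29.4%), 4 higher (17.4%) and 1 lower (11.9%). In horizontal cell-like cells 5 of 11 were called (22.1%), 2 higher (11.1%) and 3 lower (11%).

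The median log2 change of the genes tested was 0.97 in amacrine-like, 0.90 in RGC-like, 0.54 in bipolar-like, 1.57 in photoreceptor-like, 0.88 in Müller glia-like and -0.45 in horizontal cell-like cells. Over all genes tested the medians were -0.01, -0.02, 0.02, 0.08, 0.01 and 0.00. A gene low at E12 passes the filter only through E18, so these counts and medians describe the genes tested and not the whole list. Of the 27 genes, 24 were tested in at least 1 class and 21 were called in at least 1. With each cell classed by its own markers instead of by its group, more genes fell than rose in 4 classes: 3 rose and 7 fell in photoreceptor-like, 3 and 7 in horizontal cell-like, 6 and 10 in bipolar-like, and 4 and 8 in Müller glia-like cells.

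**Figure D1:**
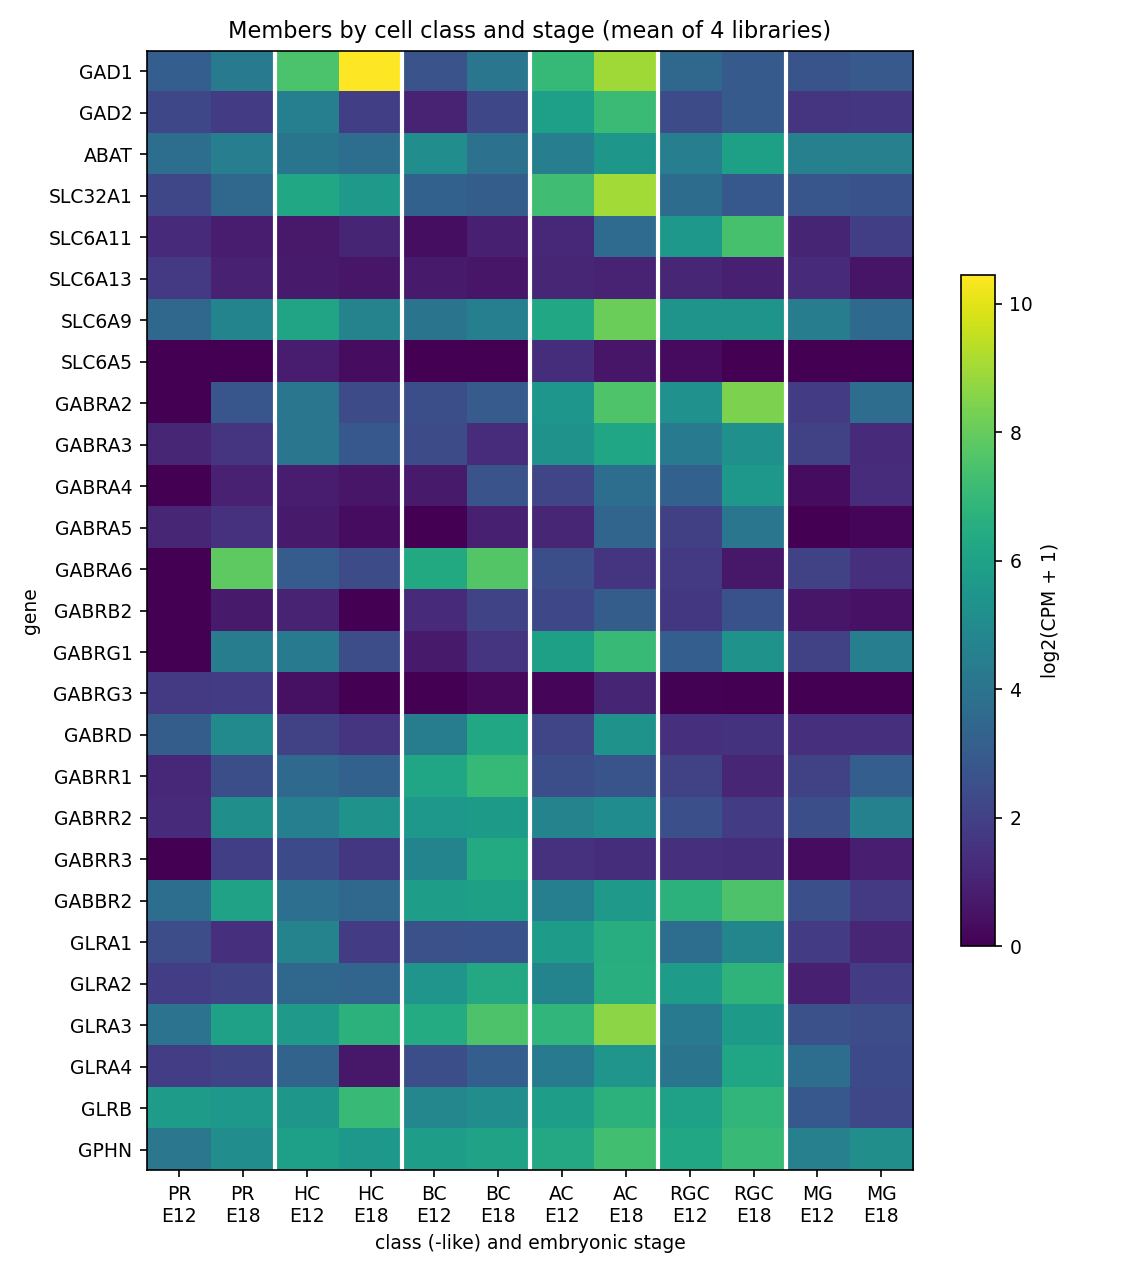
Mean level of each gene in 6 cell classes at E12 and E18, as colour on a log2(CPM + 1) scale, with 4 libraries behind each cell of the map (PR photoreceptor-like, HC horizontal cell-like, BC bipolar-like, AC amacrine-like, RGC, MG Müller glia-like). Colours are to be compared along a row, since captured counts of different genes are not on 1 scale; GAD1 is brightest in horizontal cell-like cells at E18 and GABRA6 in photoreceptor-like and bipolar-like cells at E18.

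GAD1, a glutamate decarboxylase, rose in horizontal cell-like and amacrine-like cells, and by more in the former. In horizontal cell-like cells it stood at 170.1, 203, 177 and 172 CPM in the E12 libraries and at 1288, 1445, 1457 and 1417 CPM in the E18 libraries. The stages did not overlap, and the means of 180.5 ± 15 and 1402 ± 77.5 CPM differed by a log2 change of 2.84 ± 0.06 (SE; edgeR, adjusted p = 3.68e-38). In amacrine-like cells GAD1 went from 129, 131, 126 and 119.9 CPM to 503, 496, 496 and 490.3 CPM, again with no overlap. The log2 change was 1.77 ± 0.03 (edgeR, adjusted p = 3.12e-19). The difference between these changes was itself tested, with the library as a block: the log2 change was larger by 1.03 ± 0.07 in horizontal cell-like cells (edgeR, adjusted p = 3.78e-42).

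The share of cells with a GAD1 UMI moved the same way in cells thinned to 1000 UMIs. All thinned shares leave out cells under 1000 UMIs, and unthinned shares take all cells of the class. The GAD1 share was 16.6% ± 1.53 at E12 and 48.1% ± 2.04 at E18 in horizontal cell-like cells (22.8% and 54.7% unthinned). In amacrine-like cells it was 11% ± 0.502 and 26.5% ± 0.588 (17.1% and 46.5% unthinned). Müller glia-like cells, taken as the level of free RNA, gave 0.758% ± 0.461 and 0.671% ± 0.193. GAD1 in bipolar-like cells (5.44 and 16.3 CPM, called higher) and photoreceptor-like cells (7.63 and 18.7 CPM, not called) was low beside these; Müller glia-like cells held 5.62 and 6.54 CPM, and the part of free RNA in the bipolar-like change was not tested. With cells classed by their own markers the bipolar-like log2 change was -1.74.

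GAD2, the other decarboxylase, took opposite directions in these classes. Amacrine-like cells held 63.1, 57, 57.7 and 57.5 CPM at E12 and 127, 133, 163 and 128 CPM at E18. The third E18 library stood above the rest, and the groups did not overlap. GAD2 rose by a log2 change of 1.02 ± 0.06 (edgeR, adjusted p = 5.04e-11), but without that library the change was 0.93 and under 2-fold. With that library in, GAD2 was also under 2-fold without the low-count filter (0.97) and with doublets kept (0.98). GAD2 was under 2-fold as well with at least 1000 genes per barcode (0.97) and with cells classed by their own markers (0.91). In horizontal cell-like cells it went from 21.5 ± 1.46 CPM (60 UMIs) to 2.85 ± 1.97 CPM (10 UMIs), and fell by 2.97 on the log2 scale (SE 0.39, edgeR adjusted p = 3.84e-09). With E12 cells without HINTW it could not be tested, and the summed amacrine markers were also lower at E18 in these cells. The difference between the changes was -4.09 ± 0.39 (edgeR, adjusted p = 3.26e-23).

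SLC32A1, the vesicular transporter for GABA and glycine, rose in amacrine-like cells from 163, 145, 138 and 151 CPM to 465, 492, 556 and 548 CPM. No E12 library reached an E18 library, and the log2 change was 1.58 ± 0.05 (edgeR, adjusted p = 3.68e-15). Horizontal cell-like cells held 71.4, 84.6, 82.8 and 56.4 CPM at E12 and 44.8, 45.3, 39.1 and 60.5 CPM at E18. These values overlapped, and the log2 change of -0.75 ± 0.16 did not reach 2-fold (edgeR, adjusted p = 6.64e-05). The difference between the changes of SLC32A1 in these classes was -2.36 ± 0.16 (edgeR, adjusted p = 7.14e-44). In RGC-like cells SLC32A1 fell from 12.1 ± 2.09 to 6.28 ± 6.06 CPM on 20 UMIs at E18 (log2 change -1.14 ± 0.36, edgeR adjusted p = 0.00657). Without E18 replicate 1 the adjusted p was 0.0643 and without E18 replicate 2 it was 0.0589. With cells classed by their own markers the log2 change was 3.52, the other direction, over 1507 E18 cells in place of 583.

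SLC6A9, the plasma membrane glycine transporter GlyT1 that glycine-releasing amacrine cells carry, rose in amacrine-like and fell in horizontal cell-like cells. Amacrine-like cells held 72.9, 74.5, 73.3 and 75.9 CPM at E12 and 260.0, 283, 254 and 297 CPM at E18, with no overlap (log2 change 1.68 ± 0.05, edgeR adjusted p = 1.48e-16). Horizontal cell-like cells held 68.3, 69.5, 72.4 and 61.5 CPM, then 20.7, 38.3, 25.7 and 14.8 CPM. Every E18 library was below every E12 library, and SLC6A9 fell by 1.56 on the log2 scale (SE 0.19, edgeR adjusted p = 6.35e-10). The difference between the changes was -3.27 ± 0.19 (edgeR, adjusted p = 2.45e-61). SLC6A5, the neuronal glycine transporter GlyT2 of spinal cord and brainstem in mammals, averaged 1.57 CPM or less in these 6 classes. In 1 E12 amacrine-like group of 2077 cells it stood at 21.9, 16.6, 10.4 and 16.3 CPM, on 57 UMIs. In amacrine-like cells SLC6A5 was called without the low-count filter, with a replicate block and without any 1 of the E18 libraries.

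**Figure D2:**
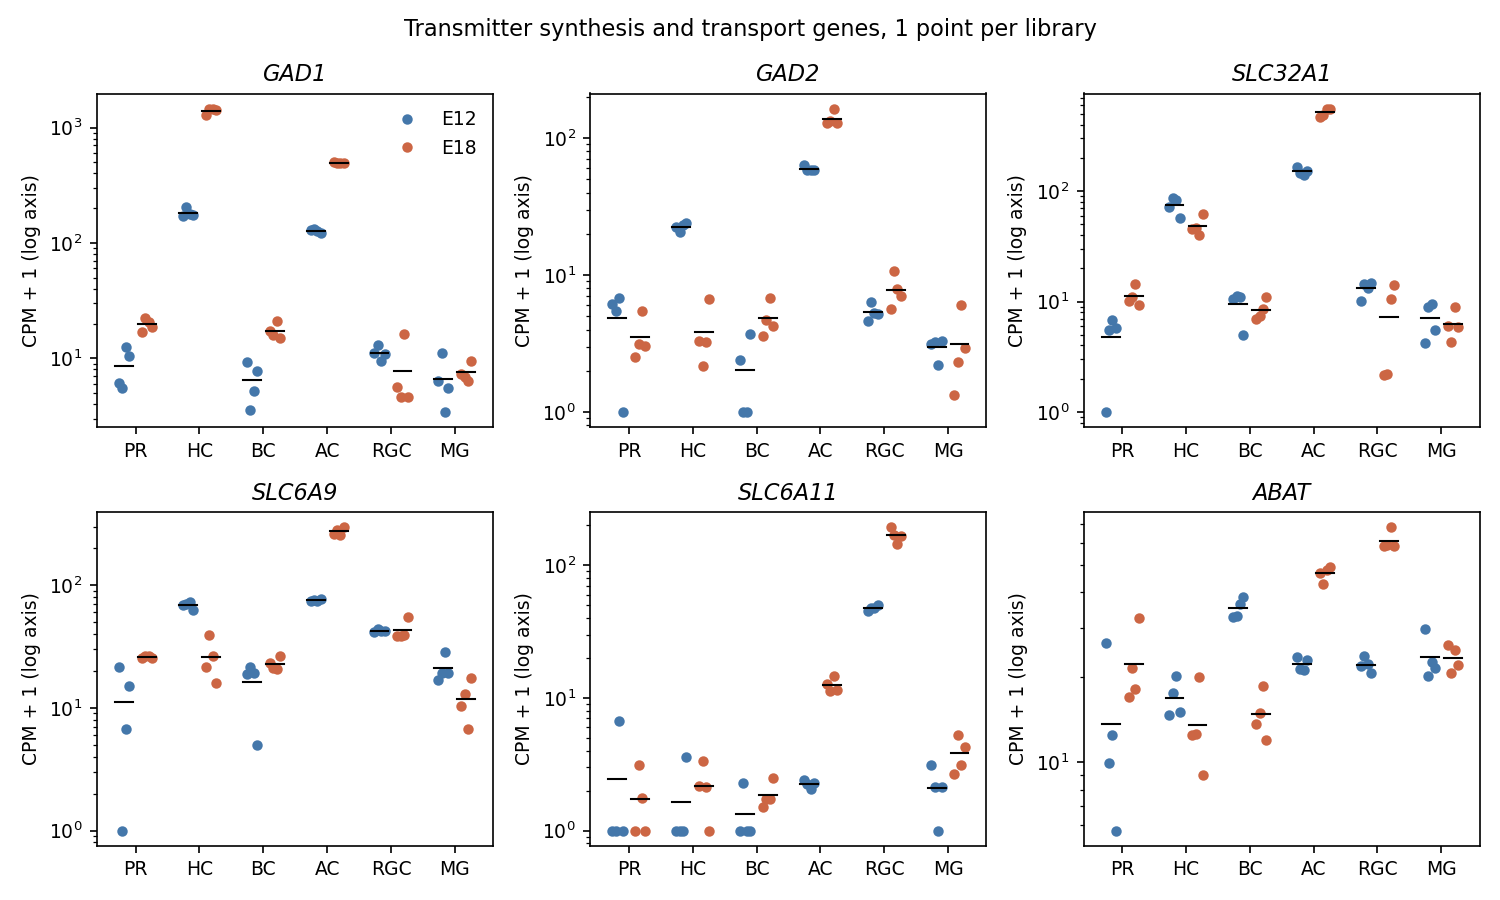
Levels of 6 synthesis, transport and breakdown genes in each library (points, CPM + 1 on a log axis) with the mean of 4 libraries (bars) for the same 6 classes at E12 (blue) and E18 (orange). GAD1 is higher at E18 in HC and AC, SLC6A9 is higher at E18 in AC and lower in HC, and SLC6A11 in RGC reaches 144 to 193 CPM at E18.

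Across the listed genes, the stage change differed between horizontal cell-like and amacrine-like cells for 17 of 24 tested at an adjusted p under 0.05, where 34.3% of all genes tested differed. GAD1 and GLRB, 2 of these, had a signed change that was higher in horizontal cell-like cells (17.7% of all genes did), and for 15 it was lower there (16.6%). GABRB2, a beta subunit, is among the latter on 3 UMIs at E12 and 0 at E18 in horizontal cell-like cells, and its adjusted p rose above 0.05 when any of 7 of the 8 libraries was left out.

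Horizontal cell-like cells at E18 fell into 3 groups that divided GAD1 among them, although no listed gene had been used to make the groups. One group, 1068 cells with LHX1 and TNR among its leading genes, held GAD1 at 2130.1, 2343, 2295 and 2270.0 CPM. Another, 664 cells with HMX2 and TUBB6 among its leading genes, held it at 22.1, 29.9, 31.5 and 31.7 CPM. The libraries of each group lay close together, and the lowest value of the first was far above the highest of the second. The third, 168 cells led by LTK and EGFR, held 312 ± 129 CPM; before removal 36.6% of its cells were suspected doublets, against 9.4% and 2.1% in the other groups. SLC32A1 was at 61.9, 56.2, 57.6 and 73.7 CPM in the LHX1-led group and at 14.7, 3.74, 3.94 and 14.1 CPM in the HMX2-led group, without overlap. At E12 horizontal cell-like cells formed a single group of 1839 cells, so the class means of the stages are not means over the same groups.

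Receptor genes were divided too. GLRA3, a glycine receptor alpha subunit, stood at 159, 180.1, 155 and 161 CPM in the LHX1-led group and at 3.69, 22.4, 3.94 and 3.52 CPM in the HMX2-led group. GABRR2, a rho subunit, stood the other way round, at 17.4, 25.2, 12.6 and 24.6 CPM against 77.4, 44.9, 39.4 and 28.2 CPM, and averaged 144 ± 49.7 CPM in the LTK-led group. GLRB, the glycine receptor beta subunit, was at 150.1 ± 16.2 and 95.7 ± 24.2 CPM in the LHX1-led and HMX2-led groups. These are levels of groups within the same libraries and were not tested.

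**Figure D3:**
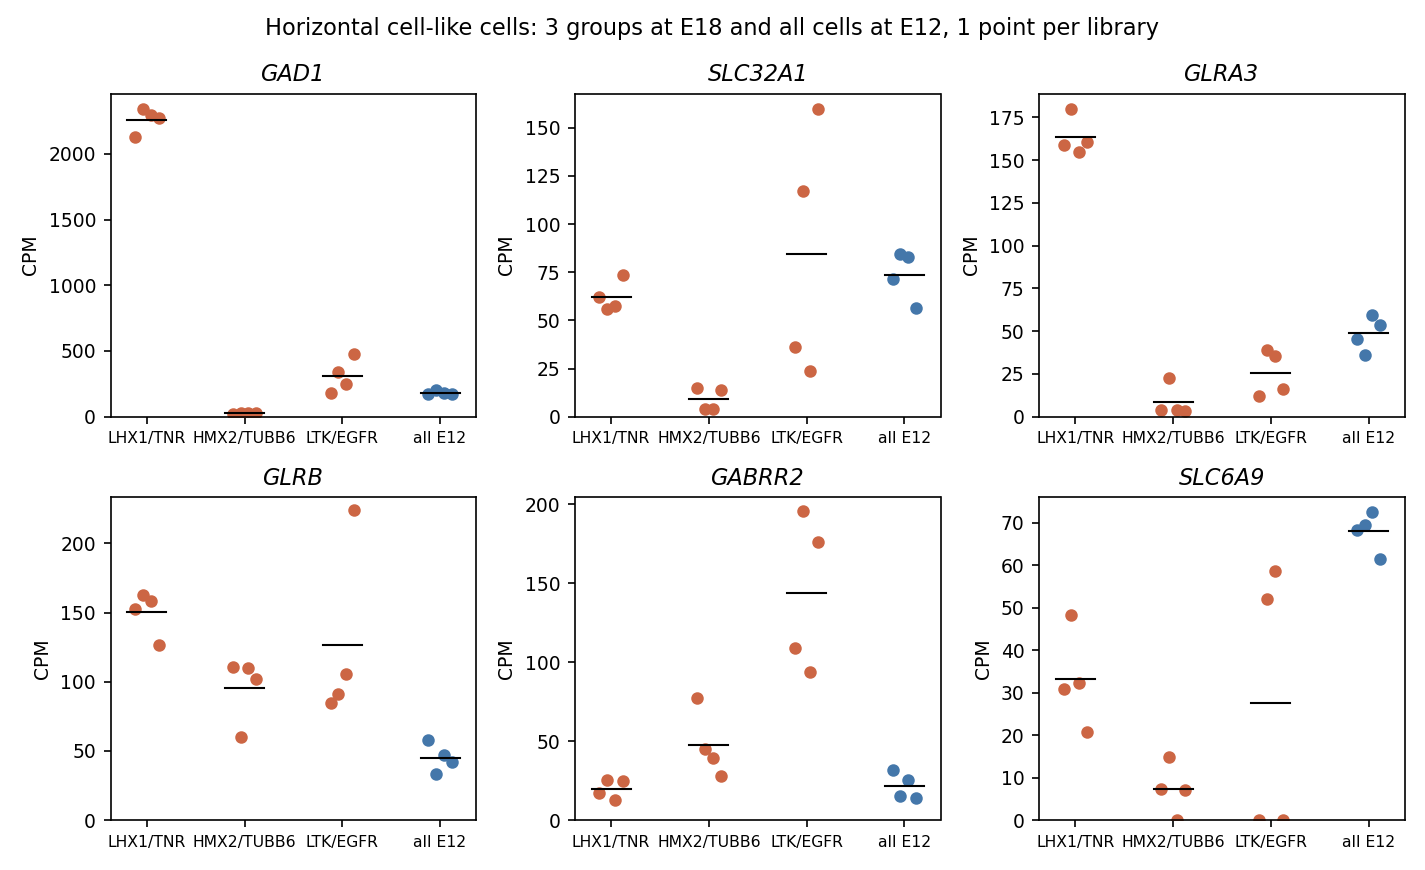
Levels (CPM, linear axis) of 6 genes in the 3 groups of horizontal cell-like cells at E18 (1 point per library, bars are means of 4 libraries) and in all horizontal cell-like cells at E12. GAD1 averages 2259 CPM in the LHX1/TNR-led group and 28.8 CPM in the HMX2/TUBB6-led group, and GABRR2 is lowest in the former of the E18 groups.

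Amacrine-like cells at E18 fell into 25 groups that separated by GAD1. In 7 groups GAD1 was at 0 to 12.7 CPM and GAD2 at 0 to 7.04 CPM, while SLC6A9 was at 338 to 1560.5 CPM, all summed over libraries. In the other 18 groups GAD1 was at 141 to 1818 CPM, GAD2 at 26.4 to 1069 CPM and SLC6A9 at 18.6 to 256 CPM. This division was drawn after the values were seen, at the gap in GAD1. SLC32A1, which serves both transmitters, did not separate the groups, at 372 to 681 CPM in the 7 and 338 to 927 CPM in the 18. At E12 GAD1 ran from 28.5 to 226 CPM over 23 amacrine-like groups without such a gap, and SLC6A9 from 27 to 301 CPM. The E12 group highest in SLC6A9, of 2289 cells, held GAD1 at 34.9 and GAD2 at 19.1 CPM. Its SLC6A9 stood at 286, 318, 315 and 285 CPM in libraries 1 to 4. The E12 group lowest in GAD1 held SLC6A9 at 59.5 CPM.

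Individual groups differed widely within each set. SLC6A9 was highest in a group with CNTFR and PKIB among its leading genes, at 1489.7, 1592, 1511 and 1651 CPM, where GAD1 was at 4.2, 14.7, 12 and 19.7 CPM. GAD1 was highest in a group led by PVALB and C1QL2 (1863 ± 363 CPM, 73 cells), and stood at 1731 ± 44.6 CPM in one led by VWA1 and FOXP4L (299 cells). GAD2 stood apart in a group led by CHODL and TFAP2C, at 853, 1262, 1127 and 1058 CPM, while the other groups with GAD1 lay at 26.4 to 456 CPM summed over libraries.

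Single cells showed a like division. In E18 amacrine-like cells thinned to 1000 UMIs, 30.3% to 32.2% of the cells of a library had a UMI of GAD1 or GAD2 and 21.5% to 23.2% had one of SLC6A9. Both were found in 1.37% to 2.18%, where the product of these shares was 6.59% to 7.31%. At E12 the shares were 15.1% to 16.8% and 6.54% to 7.02%, with both in 0.695% to 0.832% and a product of 1.0% to 1.14%. In each of these 8 libraries the joint share was below the product. In an E16 library 53 to 353 amacrine-like cells had at least 1000 UMIs. Their joint share was 0.987% to 2.2% and the product 1.21% to 2.14%. The joint share was above the product in 2 of the 4 libraries.

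**Figure D4:**
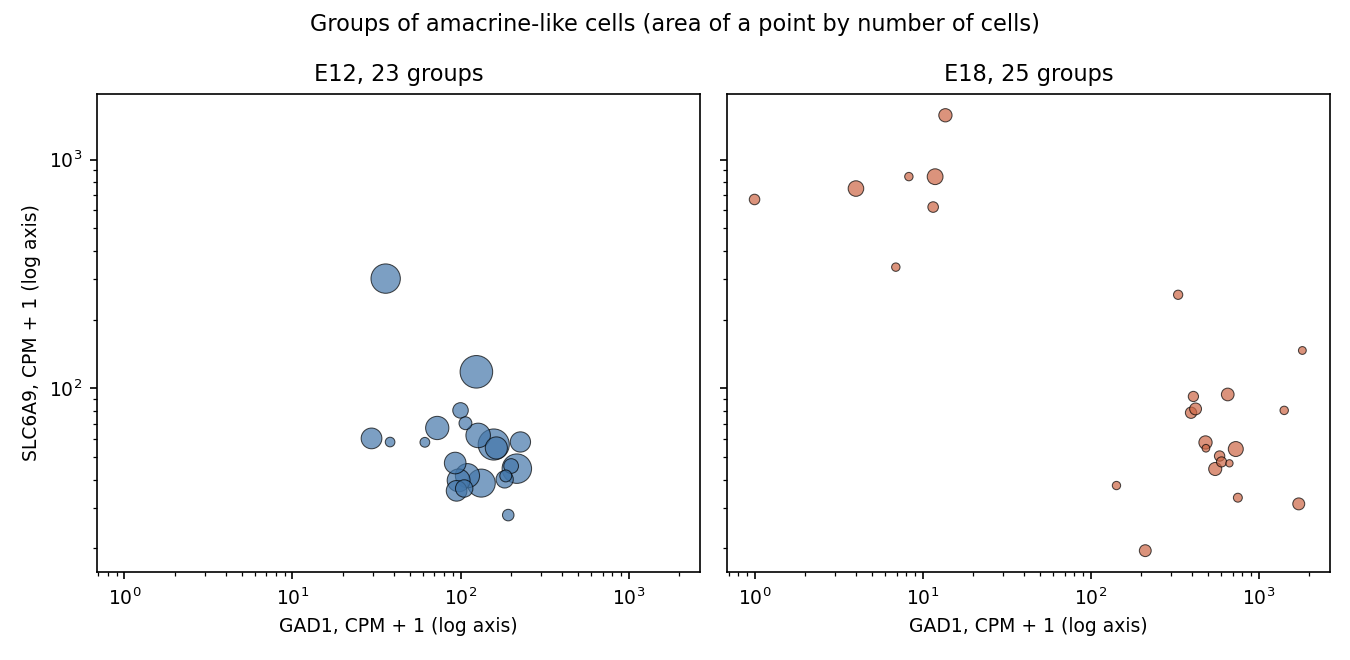
GAD1 against SLC6A9 in each group of amacrine-like cells (CPM + 1, both axes log), 23 groups at E12 and 25 at E18; the area of a point grows with its number of cells. At E18 the 7 groups at the left have GAD1 at 12.7 CPM or less and the 18 at the right have 141 CPM or more, a gap that the E12 groups do not show.

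Among clearance genes, SLC6A11, a plasma membrane GABA transporter best known from astrocytes in mammals, was highest in RGC-like cells, at 44.5, 46.7, 46.9 and 49.1 CPM at E12 and 193, 168, 144 and 166 CPM at E18. The stages did not overlap, and it rose by a log2 change of 1.69 ± 0.09 (edgeR, adjusted p = 1.39e-19). With cells classed by their own markers the change was 0.84, under 2-fold. In amacrine-like cells it rose from 1.24 ± 0.138 to 11.5 ± 1.49 CPM (log2 change 3.00 ± 0.17, edgeR adjusted p = 1.43e-11), and the other 4 classes averaged 2.84 CPM or less. SLC6A13, a related transporter, averaged 2.46 CPM or less in the 6 classes.

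ABAT, the GABA transaminase that breaks GABA down, rose in RGC-like cells from 20.9, 22.9, 21.3 and 19.7 CPM to 57.2, 58.1, 67.1 and 57.5 CPM. The groups did not overlap, and the log2 change was 1.33 ± 0.13 (edgeR, adjusted p = 1.96e-11). Amacrine-like cells went from 21.3 ± 1.14 to 45.7 ± 2.74 CPM, a log2 change of 0.90 ± 0.07 that was under 2-fold with TMM scaling but not with library totals (edgeR, adjusted p = 5.56e-10). Bipolar-like cells held 31.7, 32, 35.3 and 37.6 CPM at E12 and 12.6, 13.9, 17.7 and 11 CPM at E18. All E18 values were below all E12 values, and ABAT fell by 1.39 on the log2 scale (SE 0.19, edgeR adjusted p = 3.65e-07). With cells of at least 1000 genes alone the bipolar-like change was -0.79 (edgeR, adjusted p = 0.0983).

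Among GABA-A alpha subunits, GABRA2 rose in RGC-like, amacrine-like and Müller glia-like cells. RGC-like cells held 44.7, 40.4, 34.5 and 34.8 CPM at E12 and 334, 330.2, 359 and 326 CPM at E18. The stages lay far apart, with a log2 change of 2.96 ± 0.08 (edgeR, adjusted p = 3.05e-30). In amacrine-like cells the values were 45.1, 44.2, 45.5 and 41.1 CPM, then 202, 184, 188 and 182 CPM, again without overlap (log2 change 1.90 ± 0.05, edgeR adjusted p = 2.59e-17). In Müller glia-like cells GABRA2 rose from 2.5 ± 1.57 to 12.1 ± 1.48 CPM (log2 change 2.43 ± 0.38, edgeR adjusted p = 1.22e-07). It could not be tested there without E18 replicate 2, 3 or 4, and the part of free RNA in this rise was not tested.

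GABRA3 and GABRG1, an alpha and a gamma subunit, were not called in amacrine-like cells, although GABRG1 was with library totals. GABRA3 went from 37.8, 38.5, 42.1 and 39.2 CPM to 65.4, 72.8, 69.3 and 69.1 CPM there (log2 change 0.61 ± 0.05, edgeR adjusted p = 7.75e-09). GABRG1 went from 63.1, 58.2, 60.6 and 60.1 CPM to 137, 139, 115 and 132 CPM (0.91 ± 0.05, edgeR adjusted p = 1.86e-11). For neither gene did the stages overlap. GABRG1 rose in RGC-like cells, from 7.71 ± 1.35 to 40 ± 9.5 CPM (2.21 ± 0.19, edgeR adjusted p = 6.2e-13). It also rose in Müller glia-like cells, from 3.09 ± 0.927 to 21.2 ± 3.39 CPM (2.96 ± 0.32, edgeR adjusted p = 5.48e-12). The part of free RNA in the Müller glia-like rise was not tested.

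GABRA4 and GABRA5, further alpha subunits, were low but rose in the inner retina. In RGC-like cells GABRA4 went from 8.62 ± 1.71 to 47.2 ± 2.77 CPM (log2 change 2.29 ± 0.17, edgeR adjusted p = 1.11e-14), and GABRA5 from 3.0 ± 1.18 to 16.1 ± 5.69 CPM (2.27 ± 0.32, edgeR adjusted p = 7.61e-08). In amacrine-like cells GABRA4 rose from 3.58 ± 0.625 to 12.6 ± 1.89 CPM and GABRA5 from 1.17 ± 0.215 to 9.71 ± 0.816 CPM. In bipolar-like cells GABRA4 rested on 2 UMIs at E12 and 87 at E18, a ratio of 7.98 with a counting interval of 2.15 to 67; without any 1 of the E18 libraries it could not be tested there. GABRB2 averaged 7.37 CPM or less and GABRG3, a gamma subunit, 2.51 CPM or less in the 6 classes.

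These subunits were unevenly spread over the E18 amacrine-like groups. GABRG1 was highest in a group led by GBX2 and NRP2, at 546, 545, 482 and 547 CPM. A group led by SLC10A4 and ZAR1, which also held CHAT, the acetylcholine synthesis enzyme, at 217 CPM, had GABRG1 at 3.24 ± 2.21 CPM and GABRA2 at 21.8 ± 4.79 CPM, while GABRA5 was at 79.8 ± 14.2 CPM. GABRD, the delta subunit of extrasynaptic receptors, was highest in the VWA1-led group, at 429, 476, 508 and 477 CPM. In the class as a whole GABRD rose from 3.59 ± 0.533 to 38.7 ± 1.52 CPM (log2 change 3.22 ± 0.10, edgeR adjusted p = 1.78e-15).

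GABRA6, an alpha subunit best known from cerebellar granule cells in mammals, was found in the outer retina. Photoreceptor-like cells had no GABRA6 UMI in any E12 library and 259.8, 235, 206 and 233 CPM at E18 (1287 UMIs). Against a floor of 3 UMIs over the E12 class, which held 497 cells, GABRA6 was at least 62.6-fold higher at E18 (edgeR, adjusted p = 4.74e-26). In bipolar-like cells it rose from 79.9, 84.6, 67.8 and 87.2 CPM to 207, 197, 204 and 198 CPM. No libraries of these stages overlapped, and the log2 change was 1.24 ± 0.08 (edgeR, adjusted p = 8.62e-14). In amacrine-like cells it fell from 4.64 ± 0.774 to 1.95 ± 0.264 CPM (log2 change -1.45 ± 0.22, edgeR adjusted p = 9.03e-06); with suspected doublets kept the change was -0.29 (adjusted p = 0.15). Thinned to 1000 UMIs, with shallower cells left out, 17.4% ± 0.576 of E18 photoreceptor-like cells had a GABRA6 UMI (21.9% of all cells unthinned). The thinned share in Müller glia-like cells was 0.198% ± 0.142. Median depths over libraries were 1135 to 1208.5 UMIs in photoreceptor-like and 2476.5 to 2628 UMIs in Müller glia-like cells.

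The E18 photoreceptor-like groups split on GABRA6. It was at 264 ± 34.8 and 343 ± 65.9 CPM in a pair of groups with the red cone opsin OPN1LW among their 3 leading genes, at 313 ± 49.1 CPM in a group led by the opsins OPN1MSW and OPN2SW, and at 613 ± 75.6 CPM in one led by CYP2J21 and STRA6. In a group with GNG11 and PDE6G among its leading genes it was at 10.8 ± 7.17 CPM, and in a pair of groups with PRDM1 among their leading genes it rested on 2 and 1 UMIs. GABRG1 was the reverse, at 98.5 CPM in the GNG11-led group and at 11.9 CPM or less in the other 6, summed over libraries. The class had no GABRG1 UMI at E12 and 20.6, 24.2, 18.7 and 16.5 CPM at E18, at least 5.35-fold higher; with cells classed by their own markers, 2302 at E12, the log2 change was -0.91.

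Bipolar-like groups at E18, 23 in number, differed in GABRA6 and GABRD. GABRA6 was highest in an FGF10-led group, at 635, 528, 559 and 619 CPM, and lowest in a group led by SLC6A4 and HTR1F, at 19.9, 0, 0 and 5.48 CPM. GABRD was highest in a group led by DACT2 and PPP1R17, at 886, 843, 926 and 732 CPM, and summed over libraries ran down to 2.5 CPM in the lowest group. Over the whole class GABRD rose from 28.9, 11.5, 28.2 and 14.8 CPM to 69.8, 74.5, 78 and 75.7 CPM. The stages did not overlap, and the log2 change was 1.76 ± 0.17 (edgeR, adjusted p = 3.54e-10). GABRD also rose in photoreceptor-like cells, from 7.57 ± 5.2 CPM on 6 UMIs to 30.2 ± 3.79 CPM (1.57 ± 0.50, edgeR adjusted p = 0.00666), where without any 1 of the E18 libraries neither GABRD nor GABRG1 could be tested.

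Of the rho subunits, GABRR3 was called in bipolar-like cells and GABRR1 and GABRR2 were not. GABRR3 rose from 30.3, 23.1, 24 and 24.1 CPM to 79.9, 85.2, 81.1 and 84.6 CPM, with no overlap (log2 change 1.61 ± 0.13, edgeR adjusted p = 8.88e-12). GABRR1 went from 71.7, 65.4, 81.9 and 61.7 CPM to 132, 126, 119.6 and 133 CPM, also apart but under 2-fold (0.78 ± 0.10, edgeR adjusted p = 4.71e-08). GABRR2 stood at 45.5, 42.3, 49.4 and 51 CPM and then at 47.7, 56.7, 51.3 and 48.1 CPM; these values overlapped, and the change was 0.03 ± 0.13 (edgeR, adjusted p = 0.87). In the other 5 classes GABRR1 averaged 10.9 CPM or less and GABRR3 4.03 CPM or less at either stage.

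GABRR2 was also found outside bipolar-like cells. It rested on 1 UMI in E12 photoreceptor-like cells and on 199 at E18, at 28.9, 34.8, 44.2 and 36.3 CPM, a ratio of 29 with a counting interval of 5.15 to 1153. With cells classed by their own markers the log2 change was 0.90, under 2-fold, and without any 1 of the E18 libraries GABRR2 could not be tested in this class. In Müller glia-like cells it rose from 4.74 ± 2.56 to 22.8 ± 1.37 CPM (log2 change 2.44 ± 0.28, edgeR adjusted p = 4.14e-11), and GABRR1 rose there from 3.18 ± 1.83 to 7.63 ± 1.69 CPM (1.49 ± 0.40, edgeR adjusted p = 0.000994). GABRR1 could not be tested there without any 1 of the E18 libraries, and with at least 1000 genes per barcode its adjusted p was 0.0603. In cells thinned to 1000 UMIs GABRR1 was found in 0.696% ± 0.237 of Müller glia-like and 0.635% ± 0.257 of amacrine-like cells at E18, against 11.6% ± 0.505 of bipolar-like cells. The part of free RNA in the Müller glia-like levels of GABRR1 and GABRR2 was not tested. Among bipolar-like groups at E18 GABRR2 ran from 0 to 189 CPM, GABRR3 from 1.12 to 182 CPM and GABRR1 from 38.2 to 234 CPM, summed over libraries.

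**Figure D5:**
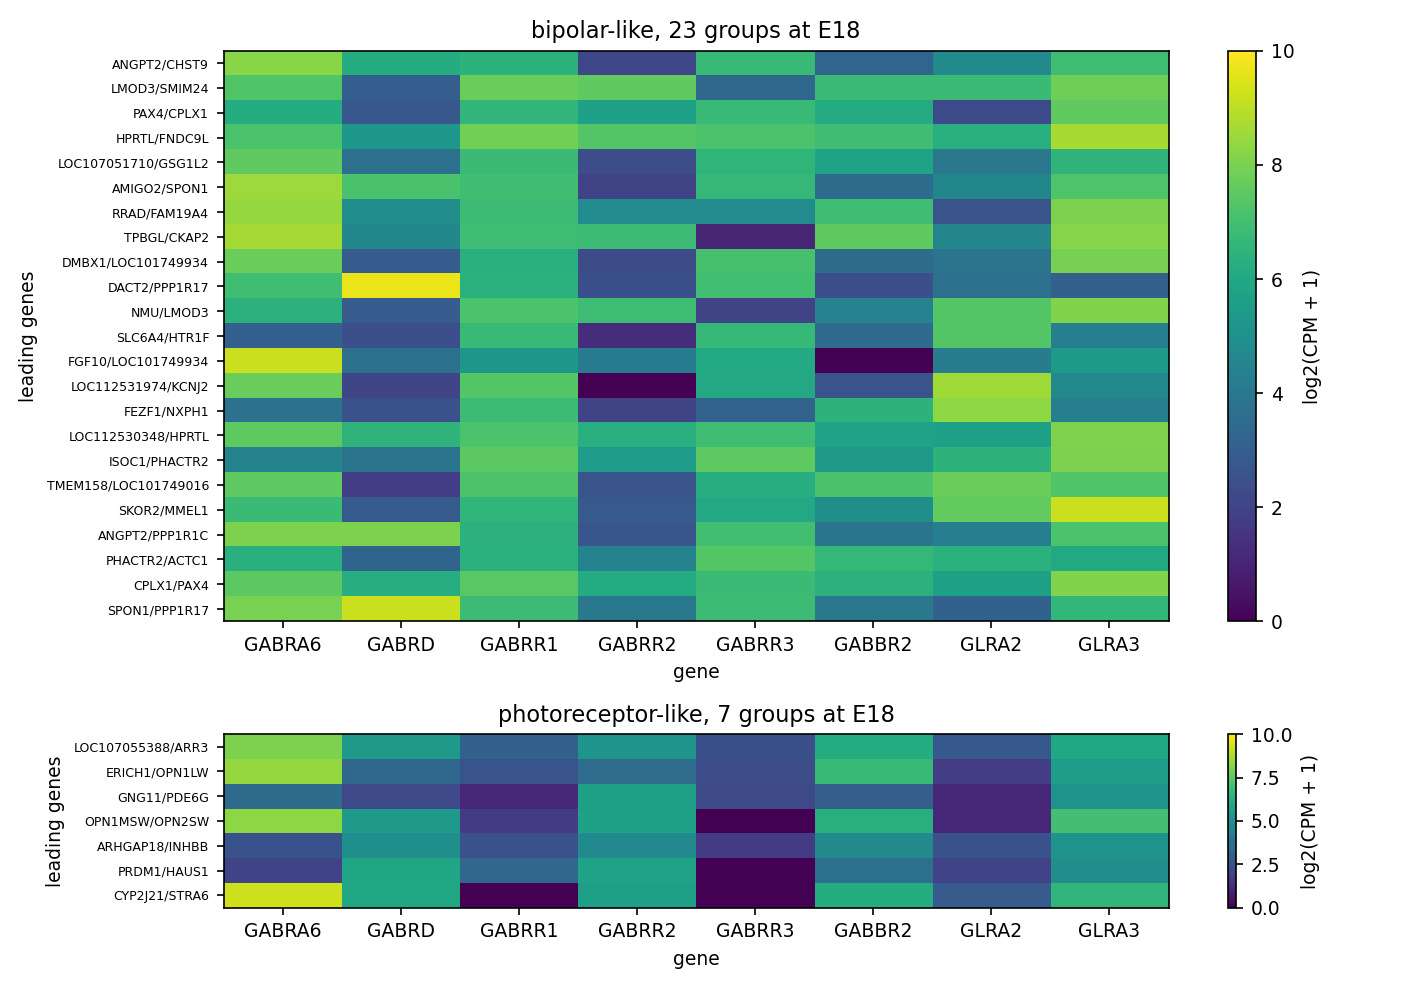
Receptor genes in the 23 bipolar-like and 7 photoreceptor-like groups at E18, as colour on a log2(CPM + 1) scale; each group is named by leading genes, and colours are to be compared between groups for 1 gene at a time. GABRR1 is at 38.2 CPM or more in all 23 bipolar-like groups, and GABRA6 is low in 3 of the 7 photoreceptor-like groups.

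GABBR2, a subunit of the GABA-B receptor, was highest in RGC-like cells, at 111, 100.4, 98.9 and 112 CPM at E12 and 183, 156, 178 and 211 CPM at E18. The stages did not overlap, but the log2 change of 0.63 ± 0.08 was under 2-fold (edgeR, adjusted p = 1.13e-08). It rose in photoreceptor-like cells, from 20.4, 4.47, 11.5 and 14.2 CPM on 10 UMIs to 74.7, 55.4, 71.2 and 53.5 CPM (1.90 ± 0.38, edgeR adjusted p = 1.44e-05). Bipolar-like cells held 56.1 ± 4.75 and 60.2 ± 2.38 CPM, a change of 0.01 ± 0.11 (edgeR, adjusted p = 0.945).

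Glycine receptor alpha subunits each had their own distribution. GLRA3 was highest in amacrine-like cells, at 115, 119, 119.7 and 119.9 CPM at E12 and 492, 449.8, 278 and 383 CPM at E18. The E18 libraries spread more than the E12 ones without reaching them, and GLRA3 rose by a log2 change of 1.56 ± 0.11 (edgeR, adjusted p = 2.67e-10). In bipolar-like cells the values were 92.4, 82, 74.8 and 93.9 CPM, then 224, 203, 145 and 159.8 CPM. The stages did not overlap and the third E18 library was again lowest; the change of 1.00 ± 0.14 (edgeR, adjusted p = 2.94e-07) was at the 2-fold limit and stood at 0.90, 0.96, 0.98 and 0.95 without E18 replicate 1 or 2 or E12 replicate 2 or 3. GLRA3 also rose in RGC-like cells, from 19.3 ± 3.62 to 51.1 ± 11.4 CPM (1.24 ± 0.16, edgeR adjusted p = 2.41e-08), and in photoreceptor-like cells, from 14.8 ± 8.19 to 62.5 ± 2.7 CPM (1.62 ± 0.35, adjusted p = 5.98e-05). With cells classed by their own markers the photoreceptor-like change was 0.20 (edgeR, adjusted p = 0.175). Horizontal cell-like cells went from 48.7 ± 10.0 to 104 ± 10 CPM, a change of 0.96 ± 0.14 just under 2-fold (edgeR, adjusted p = 7.55e-08).

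GLRA2 rose in amacrine-like cells, from 24.8, 28.2, 24.6 and 24.5 CPM to 95, 97.3, 95.5 and 100.4 CPM. The libraries of each stage were tightly grouped, and the log2 change was 1.72 ± 0.06 (edgeR, adjusted p = 1.93e-15). RGC-like cells went from 56.3, 45.1, 51.3 and 54.4 CPM to 109.8, 96.8, 114 and 126 CPM, without overlap and under 2-fold with TMM scaling but not with library totals (0.95 ± 0.10, edgeR adjusted p = 1.21e-10). In bipolar-like cells, at 43.4 ± 9.59 and 79 ± 5.65 CPM, the change was 0.78 ± 0.13 (edgeR, adjusted p = 7.43e-06). A bipolar-like group led by FEZF1 held GLRA2 at 319 ± 32.5 CPM and GABRA6 at 12.6 ± 11.3 CPM. The highest GLRA3 level was in a group led by SKOR2 and MMEL1 (583 ± 119 CPM) and the lowest, 7.36 ± 2.13 CPM, in the DACT2-led group with the highest GABRD.

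GLRA1 was highest in amacrine-like cells, at 55.2, 49.8, 56.8 and 53.3 CPM at E12 and 85.7, 98.6, 87.8 and 91.1 CPM at E18. The groups were apart, with a log2 change of 0.55 ± 0.05 (edgeR, adjusted p = 2.72e-08). In horizontal cell-like cells GLRA1 fell by 3.32 on the log2 scale (SE 0.39, edgeR adjusted p = 2.1e-10), from 24.9 ± 6.4 CPM on 69 UMIs to 2.56 ± 1.06 CPM on 9; with at least 1000 genes per barcode it could not be tested.

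GLRA4 rose in RGC-like cells, from 16.4, 15.5, 14.4 and 14.4 CPM to 78.3, 67.7, 57.5 and 79 CPM. No libraries of these stages overlapped (2.07 ± 0.14, edgeR adjusted p = 1.56e-16). In Müller glia-like cells GLRA4 fell by 1.43 on the log2 scale (SE 0.31, edgeR adjusted p = 5.49e-05), from 12.8 ± 4.85 to 4.12 ± 0.935 CPM. Among the named classes of the whole-retina libraries its level was highest in 151 oligodendrocyte-like cells at E18, at 147, 282, 104 and 147 CPM, where GABRA3 was at 94.6, 86.9, 114 and 147 CPM and SLC6A9 at 105, 86.9, 133 and 147 CPM; this class was named at E18 only and was not compared.

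GLRB, the beta subunit that ties glycine receptors to gephyrin, rose in horizontal cell-like cells, from 57.7, 33.3, 47.3 and 42.3 CPM to 133, 124, 139.7 and 126 CPM. No libraries overlapped, and the log2 change was 1.41 ± 0.14 (edgeR, adjusted p = 5.26e-13). The changes in amacrine-like cells (55.8 ± 1.38 to 104 ± 4.82 CPM, 0.69 ± 0.05) and RGC-like cells (62.4 ± 4.89 to 117 ± 18.8 CPM, 0.74 ± 0.10) were under 2-fold. GPHN, gephyrin, was called in none of the 6 classes with TMM scaling and in amacrine-like and photoreceptor-like cells with library totals, with an edgeR adjusted p under 0.05 in 4 of them. It went from 78.7, 77.2, 75.8 and 78.4 CPM to 150.1, 163, 152 and 156 CPM in amacrine-like cells (0.80 ± 0.04, edgeR adjusted p = 8.41e-13), and from 74.8, 74.6, 76.9 and 73.4 CPM to 139, 138, 115 and 137 CPM in RGC-like cells (0.66 ± 0.08, adjusted p = 1.05e-08). Horizontal cell-like cells held 58 ± 13.2 and 46.3 ± 4.24 CPM of GPHN (-0.46 ± 0.17, edgeR adjusted p = 0.0149).

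The E16 libraries compared RGC-like cells of dorsal and ventral retina, 2024 and 5509 cells. The dorsal libraries, of 955 and 1357 barcodes, shared 28 of them (2.93% of the smaller library). The ventral libraries, of 3585 and 3262 barcodes, shared 14 (0.429%). Whether the 2 libraries of a region are independent was not tested. Of 19 listed genes tested, 8 were called at an adjusted p under 0.05, all higher in dorsal cells, where 15.4% of all genes tested were called 7.79% were higher and 7.56% lower in dorsal cells. GABRA2 stood at 194 and 171 CPM in the dorsal and 131 and 133 CPM in the ventral libraries (log2 difference 0.44 ± 0.07, edgeR adjusted p = 6.56e-06). SLC6A11 stood at 134 and 112 against 76.7 and 83.3 CPM (0.58 ± 0.08, edgeR adjusted p = 8.32e-07), and GABRA3 at 69.4 and 61.4 against 42.5 and 41.7 CPM (0.60 ± 0.11, adjusted p = 3.71e-05). The libraries of these regions did not overlap for any of these genes. The other 5 were GAD1 (4.46 and 0.898 CPM on average), GLRA1 (18.9 and 9.04 CPM), GABRA5 (12.5 and 6.02 CPM), GABRG1 (26.7 and 17.9 CPM) and SLC6A9 (46.2 and 31.9 CPM).

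Depth differed between the regions: the median RGC-like cell had 1724.5 to 1936.5 UMIs in the dorsal and 4305 to 4326 in the ventral libraries. HINTW was found in 62.7% and 67.5% of the shallower dorsal and in 59.4% and 57.5% of the deeper ventral RGC-like cells. The part of sex in the differences between regions was not tested. With cells thinned to 1500 UMIs, and shallower cells of either region left out, GABRA3 and SLC6A11 were called. GABRA2 then had a log2 difference of 0.31 (edgeR, adjusted p = 0.0636). DESeq2 called GABRA2, GABRA3 and SLC6A11 and gave no adjusted p for 4 of the other 5. GABBR2, GLRA2, GLRB and GPHN, not called, had log2 differences of 0.10 ± 0.07, 0.12 ± 0.09, 0.02 ± 0.09 and -0.04 ± 0.08.

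The 37 groups of E16 RGC-like cells divided several of these genes. Summed over the 4 libraries, SLC6A11 ran from 3.88 to 202 CPM, highest in a group led by TBXAS1 and USP43. GABRA2 ran from 32.9 to 481 CPM, highest in an IKZF1-led group. GLRA4 was highest in a group led by NTS, NDNF, EOMES and the melanopsin gene OPN4-1, at 221 CPM, and GLRA2 in a group led by SOX6 and LUZP2, at 291 CPM. GAD1 was at 4.41 CPM or less in all 37 groups, and GABRA6, GABRR1 and SLC6A5 had no UMI in any.

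Of 32 other genes of the pathway 27 were in the files, and in each of the 6 classes more of them were called higher than lower at E18. The counts that follow describe the genes tested, since a gene low at E12 passes the filter only through E18. They are given for cells classed by their group only. Called higher and lower were 6 and 1 of 25 tested in amacrine-like cells (12.1% and 8.01% of all genes tested), 7 and 1 of 25 in RGC-like (10.7% and 7.86%), 12 and 1 of 24 in bipolar-like (14.1% and 7.65%), 6 and 0 of 18 in photoreceptor-like (16.7% and 10.5%), 8 and 1 of 20 in Müller glia-like (17.4% and 11.9%), and 5 and 4 of 22 in horizontal cell-like cells (11.1% and 11%). SLC12A5, the KCC2 cotransporter that lowers chloride in mature neurons, rose in every class of the 6 except horizontal cell-like cells. It rose from 47.3 ± 2.35 to 358 ± 22.2 CPM in RGC-like cells (log2 change 2.76 ± 0.07, edgeR adjusted p = 2.26e-30), from 46.6 ± 1.75 to 246 ± 10.7 CPM in amacrine-like cells (2.20 ± 0.04, edgeR adjusted p = 9.27e-19) and from 103 ± 13.6 to 325 ± 6.92 CPM in bipolar-like cells (1.57 ± 0.07, edgeR adjusted p = 2.45e-17). The part of free RNA in the photoreceptor-like and Müller glia-like rises of SLC12A5 was not tested. SLC12A2, the NKCC1 importer that raises chloride, rose in horizontal cell-like cells, from 44.4 ± 6.25 to 162 ± 18.8 CPM (1.73 ± 0.13, edgeR adjusted p = 1.56e-16).

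LHFPL4, a protein of GABA-A receptor clusters, rose in bipolar-like cells from 314 ± 12.9 to 767 ± 22 CPM (log2 change 1.20 ± 0.04, edgeR adjusted p = 1.64e-19) and in photoreceptor-like cells from 74.4 ± 11.1 to 283 ± 10.7 CPM (1.48 ± 0.16). KCTD16, a GABA-B auxiliary subunit, rose in horizontal cell-like cells from 11.6 ± 2.6 to 81.9 ± 4.73 CPM (2.69 ± 0.21). GLDC of glycine breakdown fell in bipolar-like cells, from 212 ± 29.3 to 57.5 ± 2.32 CPM (-1.97 ± 0.09). GLUL, glutamine synthetase, rose in Müller glia-like cells from 191 ± 19 to 11207 ± 233 CPM (6.09 ± 0.04). In the other 5 classes it averaged 59.8 to 184 CPM at E18, and the part of free RNA in those levels was not tested. GLUL was among the markers that named the Müller glia-like class, so its contrast between classes was partly fixed by the naming.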

How the data were processed

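Droplet libraries (10x Chromium 3′) were made from chick retina. The values used are raw UMI counts per gene and cell, deposited by the authors; the submitters' processing notes name Cell Ranger 2.1.0 and the build GRCg6a. Barcodes with at least 500 genes were kept, suspected doublets were removed at a rate of 0.8% per 1000 barcodes, and cells were clustered by stage (2000 variable genes, 40 principal components, 20 neighbours, Leiden resolution 1, leidenalg 0.10.2) without the listed genes and HINTW. Clusters were named from marker lists by a rule set with the counts in view; unclear ones stayed unnamed.

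Counts were summed per library and class and tested with edgeR 4.0.16 (quasi-likelihood, TMM scaling, filterByExpr), with Benjamini-Hochberg adjustment over all genes tested. The SE given with an edgeR log2 change was derived from the test, as the size of the change divided by the square root of its F statistic. Stage calls needed an adjusted p under 0.05 and 2-fold; the difference between classes and the dorsal-ventral comparison needed the p alone. DESeq2 1.42.0 was an alternative, beside other scaling, filters, doublet handling, cell classes, a replicate block and leaving out each library. The fits were tested on simulated data. Libraries were grouped by their labels; E12 libraries held 25226502 to 27655687 UMIs, E18 libraries 16436527 to 16967777. Counting intervals and floors of 3 UMIs cover counting error only.

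Genes averaging 50 CPM or more in a class are given per library where a result turns on them. Other genes of the pathway were named by the size of their change among those called with at least 50 CPM in the higher stage. The listed genes, lists and tests were chosen with earlier results of these data known.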

Additional observations from a re-analysis of the deposited data

Results flagged for a closer look

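In 59 sets of 4 libraries tested for a single library far from the other 3 (Dixon's ratio above its 95% critical value), 5 had one, and chance gives about 1 in 20. ABAT in E18 RGC-like cells was at 67.1 CPM in replicate 3, against 57.2, 58.1, 67.1 and 57.5 CPM in all. GAD2 in amacrine-like cells was at 63.1 CPM in E12 replicate 1 and at 163 CPM in E18 replicate 3. GLRB in E12 photoreceptor-like cells, a class of 497 cells, was at 20.4 CPM in 1 library, with a mean of 54.3 ± 22.9 CPM. GPHN in E18 RGC-like cells was at 115 CPM in replicate 3.

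The change from E12 to E18 differed between horizontal cell-like and amacrine-like cells for 17 genes, by a test of the difference itself (edgeR, adjusted p under 0.05). Values are the log2 change in horizontal cell-like cells minus that in amacrine-like cells, with SE. Of the genes of synthesis, transport and breakdown, GAD1 stood at 1.03 ± 0.07, GAD2 at -4.09 ± 0.39, SLC32A1 at -2.36 ± 0.16, SLC6A9 at -3.27 ± 0.19 and ABAT at -1.38 ± 0.33. Of the GABA receptor genes, GABRA2 stood at -3.97 ± 0.39, GABRA3 at -2.15 ± 0.36, GABRG1 at -3.09 ± 0.37, GABRD at -4.06 ± 0.81 and GABBR2 at -1.41 ± 0.36. GABRB2 had a fitted value of -6.18 ± 2.48 on 3 and 0 UMIs in horizontal cell-like cells, so its size depends on the model's prior count. Of the glycine receptor genes, GLRA1 stood at -3.96 ± 0.39, GLRA2 at -1.93 ± 0.39, GLRA3 at -0.62 ± 0.16, GLRA4 at -5.06 ± 0.71, on 2 UMIs in E18 horizontal cell-like cells with the same limit, and GLRB at 0.70 ± 0.15. GPHN stood at -1.29 ± 0.17.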

How the results depend on the processing

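Of the values of called genes recomputed under the alternatives, 996 kept direction and call, 52 kept direction and lost the call, and 3 reversed. A further 37 calls had no adjusted p under an alternative, being under the count filter there or given none by DESeq2. Genes not called in the main fits are outside these counts, also where an alternative newly called them. The reversals all came from classing each cell by its own markers: GABRG1 in photoreceptor-like cells went to -0.91, GAD1 in bipolar-like cells to -1.74 and SLC32A1 in RGC-like cells to 3.52. That setting also gave 10 called genes in photoreceptor-like cells in place of 6, 10 in horizontal cell-like in place of 5, 16 in bipolar-like in place of 7, 15 in RGC-like in place of 9 and 12 in Müller glia-like in place of 5; the cause was not tested. With at least 1000 genes per barcode 1 of 2 genes tested was called in photoreceptor-like and 3 in Müller glia-like cells. In horizontal cell-like cells 9 were called without the filter on low counts and 8 with doublets kept. Between dorsal and ventral cells DESeq2 called 3 and thinning left 2, in place of 8.

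Leaving out 1 library at a time gave 3 to 6 called genes in photoreceptor-like cells (3 without any E18 library, where 4 were tested), 6 to 7 in horizontal cell-like, 5 to 8 in bipolar-like, 12 to 14 in amacrine-like, 8 to 12 in RGC-like and 3 to 5 in Müller glia-like cells (3 without E18 replicate 2, 3 or 4). The same gave 16 to 17 for the difference between horizontal cell-like and amacrine-like cells and 5 to 7 between dorsal and ventral cells (5 without ventral replicate 2), where a lone library is assumed to vary like the others. The labels do not say that replicate numbers pair the samples. Same-numbered deviations correlated at -0.107 to 0.0807, which cannot settle it, since these deviations are in part counting noise. With a replicate block 8 genes were called in horizontal cell-like cells in place of 5, and counts in the other classes stayed within 1.5 times. GABRA2, GABRA3 and GABRG1 were newly called in horizontal cell-like cells with a replicate block, with doublets kept and without the low-count filter. The same held with cells classed by their own markers. GABRA2 and GABRG1 were also newly called in horizontal cell-like cells without any 1 of the E18 libraries. Without groups rich in suspected doublets, a setting chosen after seeing the data, 6 were called in horizontal cell-like and 6 in bipolar-like, 13 in amacrine-like cells and 18 for the difference.

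Scaling by library totals moved the median log2 change of all genes to 0.53 in photoreceptor-like, 0.19 in amacrine-like, 0.14 in RGC-like, 0.13 in horizontal cell-like, 0.11 in bipolar-like and -0.21 in Müller glia-like cells. The share of called genes that were higher went from 61.3% to 83.8%, from 60.1% to 75.1% and from 57.6% to 70.7% in the first 3 of these and from 59.3% to 45.3% in Müller glia-like cells. The 497 photoreceptor-like cells at E12 and 583 RGC-like cells at E18 limit what could be tested there.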

Other observations

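Some E18 cells matched no marker list closely enough to be named. In a group of 180 such cells led by NTS, SS2 and PENK, SLC6A9 was at 451, 374, 450.4 and 441 CPM and GLRA4 at 362, 199.6, 310.4 and 175 CPM in libraries 1 to 4, SLC32A1 averaged 278 ± 21 CPM, and GAD1 rested on 2 UMIs. In another of 50 cells led by LOC112531784, POU3F3 and TACR3, GAD1 was at 879, 612, 588 and 425 CPM and SLC6A11 at 170.1, 188, 235 and 159 CPM, with SLC32A1 at 519 ± 145 CPM on average.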
